A study of Homo sapiens with 30 samples.

Results

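R1881 (methyltrienolone) is a synthetic androgen that cells metabolise slowly, and the comparison described here is that of LNCaP cells given 10 nM R1881 with LNCaP cells given 0.06 nM, both for 24 h. LNCaP is an established prostate cancer line, grown from a lymph node metastasis, that depends on androgen for growth. The samples were chosen by their labelled dose: 6 of the 30 samples of the series, 3 libraries at 10 nM and 3 at 0.06 nM, numbered 2, 3 and 4 in each group. The series measured messenger RNA by sequencing over a range of R1881 doses in LNCaP and VCaP cells, and asks how the genes that answer to low and to high androgen doses differ, given that the response to androgen is biphasic. Every LNCaP group, vehicle included, was plated at 130000 cells per well in medium with 8% charcoal-stripped serum, in which steroid hormones are depleted, and kept in it for 48 h before treatment. Vehicle, 0.03 nM and 0.1 nM libraries of the same line, also 3 each, entered the same fit, where they share in the filter and the estimate of spread, and are used below to place a gene's level on the dose scale. The labels do not say whether the 3 libraries of a group came from separate cultures, so the p-values measure the spread between these libraries, which may be technical, and the cells are those of a single line.

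Androgens are steroid hormones that enter the cell and change transcription through DNA sites called androgen response elements, raising the output of some genes and lowering that of others. In prostate luminal cells androgen drives the secretory programme, kallikrein proteases such as prostate-specific antigen included, together with lipid and protein synthesis for secretion. Growth of LNCaP cells in culture is known to rise at low androgen and to be restrained at high androgen.

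The libraries fitted their labelled line: the luminal genes KLK3, KRT8 and KRT18 had means of 1503, 466 and 411 CPM (counts over the effective library size, on the usual CPM scale) at 0.06 nM, while the basal marker TP63 and the leukocyte marker PTPRC were too low to be tested. Total counts per library ran from 30666460 to 39532215 at 0.06 nM and from 41596157 to 61199483 at 10 nM. The library numbered 3 stood apart in each group: mitochondrially encoded genes took 9.31% of counts at 0.06 nM and 9.79% at 10 nM, against 6.70% to 7.69% in the other 4 libraries. Levels below are CPM as mean ± SD over 3 libraries, values listed singly are in the order of replicates 2, 3 and 4, and differences are log2 fold changes (10 nM minus 0.06 nM) ± SE with Benjamini-Hochberg adjusted p from edgeR's quasi-likelihood test. A gene was called if its adjusted p was under 0.05.

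Raising the dose from 0.06 to 10 nM changed a large share of the transcriptome. In bulk RNA fewer cells with a transcript and less RNA per cell cannot be told apart. Of 18403 genes tested, 8341 were called (45.3%), 4182 higher at 10 nM (22.7%) and 4159 lower (22.6%). Most of these differences were small: 4780 called genes changed less than 1.5-fold, 1798 (9.77%) changed at least 2-fold, 733 up (3.98%) and 1065 down (5.79%), and 58 rose and 39 fell at least 10-fold. The 3 libraries of one dose did not overlap the 3 of the other for 9957 genes (54.1%). The even split depends on scaling. With library totals in place of TMM factors, which were lower at 10 nM (0.902 ± 0.0166) than at 0.06 nM (1.02 ± 0.0257), the median gene moved from -0.0268 to -0.206, and 2334 genes were called higher and 7040 lower, so that higher calls made up 24.9% of all calls in place of 50.1%. All values below are on the TMM scale.

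**Figure D1:**
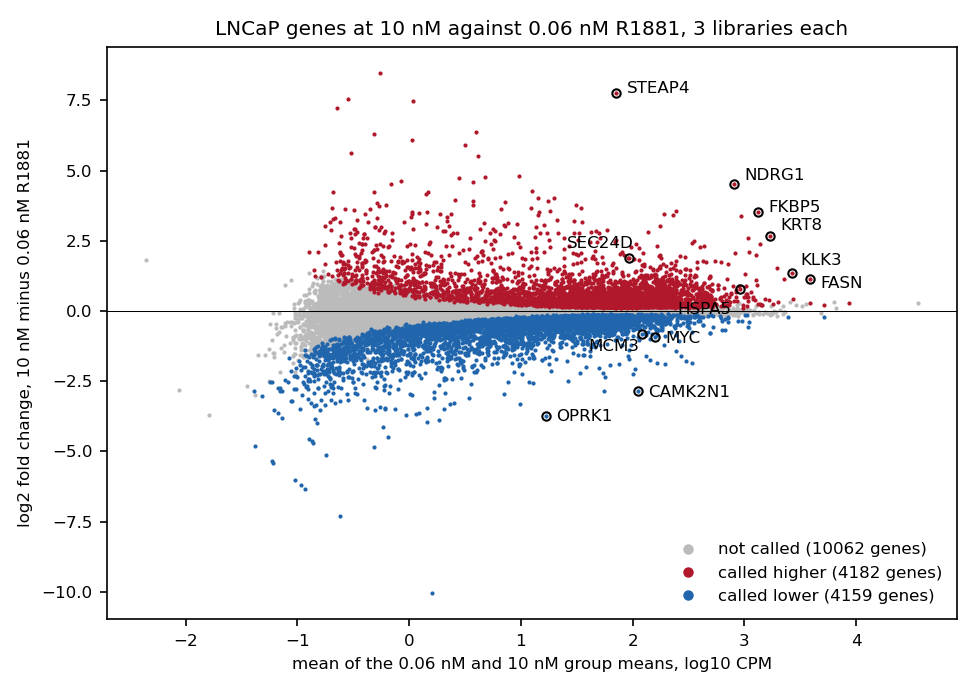
Each point is a gene, plotted as its log2 fold change (10 nM minus 0.06 nM R1881, 3 libraries each) against the log10 of its mean CPM over the 2 groups; red and blue mark genes called higher (4182) and lower (4159), and circles mark genes described in the text. Abundant genes such as FASN, KLK3, FKBP5 and NDRG1 lie above 0, and the lowest point is the ribosomal RNA gene ENSG00000274917.1, at 2.76, 4.05 and 2.8 CPM at 0.06 nM and at 0 in the 3 libraries at 10 nM.

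Calls were not spread evenly over abundance or kind of gene, a breakdown made after the calls were seen. Among genes with a mean over 100 CPM, 46.4% were higher and 12.9% lower, while among those of 1 to 10 CPM 14% were higher and 30.8% lower. Protein-coding genes were higher in 28% and lower in 25.3% of cases, and long noncoding RNAs in 9.73% and 17.6%.

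The 12 largest rises among genes with at least 5 CPM in either group were led by STEAP4, a metalloreductase of the cell membrane (ENSG00000127954.13, chromosome 7, 88270892 to 88306891, minus strand, GRCh38). STEAP4 stood at 0.758, 0.691 and 0.524 CPM at 0.06 nM and at 137, 138 and 149 CPM at 10 nM, a rise of 214-fold (log2 7.74 ± 0.17, adjusted p = 9.8e-15). Every library at 10 nM was far above every library at 0.06 nM. No STEAP4 read was counted in vehicle (0 in each library) and its mean was 3.98 CPM at 0.1 nM, so most of its rise lay between 0.1 and 10 nM. The neighbouring family members did not behave alike: STEAP1 rose by 0.18 ± 0.064 and STEAP2 stood at 1201 ± 112 and 1345 ± 215 CPM (adjusted p = 0.264).

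NDRG1, a cytoplasmic protein known for its induction by androgen, hypoxia and differentiation signals, was the most abundant of the 12. It stood at 62.3, 73.9 and 65.6 CPM at 0.06 nM and 1605, 1269 and 1733 CPM at 10 nM (log2 4.51 ± 0.12, adjusted p = 5.14e-15). Vehicle had 37 ± 0.479 CPM and 0.06 nM 67.3 ± 5.98, both far under the 10 nM libraries. The other rises of this set began from levels under 3 CPM at 0.06 nM. SLC2A3, the glucose transporter GLUT3, went from 0.758, 0.757 and 0.472 to 19.3, 16.2 and 20.3 CPM (log2 4.81 ± 0.18). EMP1, an epithelial membrane protein, went from 0.201 ± 0.00762 to 5.42 ± 0.783 CPM, and PDE3A, a cyclic nucleotide phosphodiesterase, from 0.3 ± 0.0822 to 7.22 ± 1.75 CPM (log2 4.73 ± 0.21 and 4.601 ± 0.33). These low-dose levels rest on few reads, 22 counts over 3 libraries for EMP1 and 32 for PDE3A.

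The plasma proteins ORM1 and ORM2, orosomucoids of the acute-phase response, rose from 0.0999 and 0.338 to 6.2 and 9.16 CPM (log2 5.91 ± 0.28 and 4.78 ± 0.20). They are near-identical neighbours on chromosome 9, so how their reads were divided is uncertain. NBL1, a secreted BMP antagonist, rose by 5.51 ± 0.24, from 0.122, 0.0987 and 0.288 to 7.56, 7.36 and 9.26 CPM, but its locus overlaps the readthrough gene MICOS10-NBL1 on the same strand. AKAP12, a scaffold for protein kinase A, rose by 4.02 ± 0.18, TMCC3, a membrane protein of the endoplasmic reticulum, by 4.02 ± 0.16, and TG, thyroglobulin, by 3.92 ± 0.21.

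UGT2B28, an enzyme that glucuronidates steroids, rose by 4.26 ± 0.45. Its values were 1.59, 0.592 and 1.39 CPM at 0.06 nM and 30.6, 9.92 and 30.7 CPM at 10 nM, with the library numbered 3 the lowest at both doses. The paralogs UGT2B11, UGT2B15, UGT2B17 and UGT2B10 had the same library lowest at both doses. UGT2B11 rose, from 9.27, 1.65 and 6.47 to 77.2, 17 and 69.5 CPM (log2 3.19 ± 0.68, adjusted p = 0.000906). UGT2B17 fell, from 117, 48.4 and 102 to 28.9, 11.2 and 19.3 CPM (log2 -2.20 ± 0.48, adjusted p = 0.00104). UGT2B15, which inactivates dihydrotestosterone as UGT2B17 does, fell from 82.2, 20.6 and 63.5 to 18.7, 4.61 and 13.6 CPM (log2 -2.22 ± 0.67, adjusted p = 0.0118), a call lost without 10 nM replicate 3 (-1.80, adjusted p = 0.0509) or without 0.06 nM replicate 2 (-1.82, adjusted p = 0.0544). UGT2B10 stood at 1.81 ± 1.03 and 1.83 ± 0.983 CPM (adjusted p = 0.936). Members of one family moved in opposite directions, and how reads of these close paralogs were divided between them is not given in the sources used here.

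**Figure D2:**
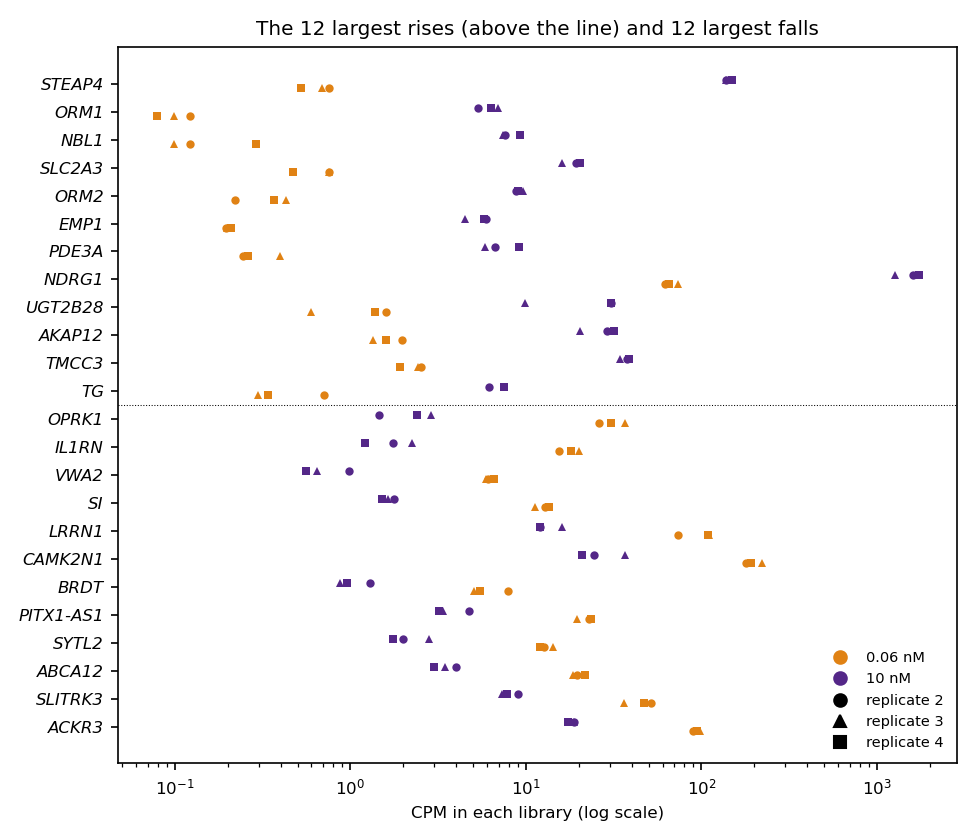
CPM on a log axis in each of the 6 libraries for the 12 largest rises (above the dotted line) and the 12 largest falls (below it); orange is 0.06 nM, purple 10 nM, and circles, triangles and squares are replicates 2, 3 and 4. The 2 doses do not overlap for any of the 24 genes, which the choice of genes required, and UGT2B28 has the widest spread at 10 nM among the rises, with replicate 3 lowest at both doses.

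The largest falls were led by OPRK1, the kappa opioid receptor. OPRK1 stood at 26.2, 36.8 and 30.3 CPM at 0.06 nM and 1.45, 2.89 and 2.4 CPM at 10 nM (log2 -3.75 ± 0.16, adjusted p = 2.68e-12). It was already lower at 0.06 nM than in vehicle, which had 99.3 ± 8.64 CPM. The same order, vehicle over 0.06 nM over 10 nM, held for the means of IL1RN, the interleukin-1 receptor antagonist (log2 -3.32 ± 0.15), VWA2, a secreted von Willebrand factor A domain protein (-3.10 ± 0.21), and SI, sucrase-isomaltase (-2.94 ± 0.17). It also held for LRRN1, a leucine-rich repeat membrane protein (-2.86 ± 0.16), and CAMK2N1, an inhibitor of CaM kinase II. CAMK2N1 was the most abundant of the 12 and went from 179, 221 and 192 to 24.3, 36.6 and 20.8 CPM (-2.85 ± 0.14). ACKR3, an atypical chemokine receptor that scavenges CXCL12, had the tightest libraries, 89.99, 98.4 and 94.7 CPM at 0.06 nM and 18.7, 18.8 and 17.4 CPM at 10 nM (-2.37 ± 0.052, adjusted p = 1.1e-15). The synaptic adhesion protein SLITRK3 (-2.49 ± 0.17), the lipid transporter ABCA12 (-2.52 ± 0.15), the Rab27 effector SYTL2 (-2.54 ± 0.15) and the noncoding RNA PITX1-AS1 (-2.56 ± 0.15) made up the rest of the order. BRDT, a bromodomain protein of the testis, was the exception in order: it was higher at 0.06 nM (6.12 ± 1.53 CPM) than in vehicle (3.47 ± 0.795), and fell to 1.04 ± 0.222 CPM at 10 nM (-2.58 ± 0.23).

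Measured as change in CPM, the transcripts that gained most were FASN, KRT8, KLK3, FKBP5 and ABHD2. FASN, fatty acid synthase, went from 2526, 2497 and 2319 to 5307, 5179 and 5609.6 CPM (log2 1.13 ± 0.079, adjusted p = 1.96e-09). KRT8, a keratin of luminal epithelium, went from 459, 487 and 452 to 2866, 2719.6 and 3210.2 CPM (log2 2.65 ± 0.063), and its partner KRT18 from 411 ± 25.7 to 1779 ± 86.4 CPM (2.11 ± 0.06). KRT8 in vehicle (479 ± 14.3 CPM) was at its 0.06 nM level, with no rise at the low dose. The KRT8 and KRT18 loci overlap on opposite strands, and the strand setting of the counting is not given in the sources used here. ABHD2, a serine hydrolase, rose by 1.54 ± 0.071. The losses were led by EEF2, a translation elongation factor, with 5563 ± 559.8 and 4760.1 ± 251 CPM (-0.22 ± 0.08, adjusted p = 0.0288), a call lost without 10 nM replicate 2, 10 nM replicate 4 or 0.06 nM replicate 3 (adjusted p = 0.0839, 0.077 and 0.167). FOLH1, prostate-specific membrane antigen, fell from 1191, 1432 and 1212 to 833, 958 and 815 CPM (-0.56 ± 0.08). GRB10, an adaptor that restrains insulin and IGF receptor signalling, fell from 532 ± 26.5 to 148 ± 6.15 CPM (-1.85 ± 0.095), FN1, fibronectin, from 465 ± 67.4 to 134 ± 16.4 CPM (-1.79 ± 0.13), and RPS2, a ribosomal protein, from 2661 ± 139 to 2298 ± 35 CPM (-0.21 ± 0.059).

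Androgen-induced genes went on rising beyond 0.06 nM. Of 33 tested, 32 were called higher and 0 lower, beside 22.7% and 22.6% of all genes, with a median log2 change of 1.71 beside -0.0268 over all genes. This list was compiled from genes known to be induced by androgen in prostate cells, LNCaP among them, so its direction is not independent evidence. FKBP5, a co-chaperone of steroid receptors, stood at 220.3, 206 and 206 CPM at 0.06 nM and 2447, 2368 and 2537 CPM at 10 nM (11.6-fold, log2 3.54 ± 0.072, adjusted p = 4.36e-16). ACSL3, which activates long-chain fatty acids, rose from 312, 309.7 and 296 to 1915, 1679 and 2019 CPM (2.61 ± 0.065). On the log2 scale the kallikreins made the larger step between vehicle and 0.06 nM. KLK3, prostate-specific antigen, went from 103 ± 7.64 in vehicle to 1548, 1568 and 1393 at 0.06 nM and 3899, 3898 and 3760.5 CPM at 10 nM, log2 changes of 3.87 ± 0.093 and then 1.358 ± 0.084. KLK2 went from 8.77 ± 0.979 to 246 ± 13.8 and 848 ± 18.1 CPM (4.81 ± 0.099 and 1.78 ± 0.082). TMPRSS2, a membrane serine protease, rose by 2.07 ± 0.21 after 2.26 ± 0.21. The steps of FKBP5 were in the other order, 1.86 ± 0.069 from vehicle to 0.06 nM and 3.54 ± 0.072 from there. So were those of MAF, a leucine zipper transcription factor, with means of 15.2 CPM in vehicle, 32 at 0.06 nM and 348 at 10 nM. These step sizes share the 0.06 nM libraries and are given side by side, with no test of their difference.

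The promoters of KLK2 and KLK3 show a sequence known to mediate androgen response in this family. Both are RefSeq windows of 250 bases ending at the gene's start (GRCh38.p14), 5′ to 3′, with capitals marking the only match on either strand to a loose form of the androgen response element, the letters GNACA and GTNC with 4 bases between them.
KLK2 (chr19:50873189-50873438, plus strand): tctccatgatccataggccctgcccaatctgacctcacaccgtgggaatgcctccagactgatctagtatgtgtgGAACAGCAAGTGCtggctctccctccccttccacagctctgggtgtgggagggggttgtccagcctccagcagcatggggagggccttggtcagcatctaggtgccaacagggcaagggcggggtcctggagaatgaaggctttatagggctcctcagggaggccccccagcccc
KLK3 (chr19:50854665-50854914, plus strand): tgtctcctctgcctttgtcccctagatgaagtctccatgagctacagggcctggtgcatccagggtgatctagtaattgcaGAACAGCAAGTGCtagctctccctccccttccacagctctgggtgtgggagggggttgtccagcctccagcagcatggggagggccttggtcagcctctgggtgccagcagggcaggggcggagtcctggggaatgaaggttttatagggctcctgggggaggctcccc
The match in KLK2 begins 175 bases and that in KLK3 169 bases before the start. For shares, whole windows of 300 bases were searched (250 before the start to 50 after), and a gene counted once if any of its windows held a match. Of the androgen-induced genes 22 had a window and 4 of these (18.2%) held a match, beside 2.59% of the 11984 tested genes with a window. Over all genes with a window, those holding a match were called higher at 10 nM in 26.1% of 310 cases, beside 26.9% of all. The motifs and the promoters shown were chosen after the results were seen, and a match was required for a promoter to be shown. KLK3 was added by name, and CENPN, which also held a match, is not shown. A match is a run of letters and not a shown binding site, and these windows leave out distant enhancers.

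Androgen-repressed genes were mostly lower at 10 nM. Of 24 tested, 19 were lower and 3 higher (median -2.18), beside 22.6% and 22.7% of all genes, again a list compiled from genes known to respond to androgen. AMIGO2, an adhesion protein, fell from 3.51 ± 0.642 to 0.234 ± 0.0468 CPM (-3.87 ± 0.20), ABCA1, a cholesterol exporter, from 2.7 to 0.167 CPM (-3.95 ± 0.54), and DDC, aromatic amino acid decarboxylase, from 167, 159 and 179.7 to 37.8, 46.3 and 37.8 CPM (-2.05 ± 0.11). The members that rose were UGT2B11, the chemokine receptor CXCR4 (0.503 to 3.66 CPM, 2.85 ± 0.21) and the orphan receptor kinase ROR1 (0.85 ± 0.094). CCND1, cyclin D1, stood at 417, 455 and 410.1 CPM at 0.06 nM and 404, 460.2 and 410.0 CPM at 10 nM (-0.0077 ± 0.07, adjusted p = 0.942), and its libraries overlapped. Under library totals CCND1 was called lower (-0.19, adjusted p = 0.00909).

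Among pioneer factors and coregulators of steroid receptor transcription some genes rose and others fell. GATA2, a pioneer factor that opens chromatin, fell from 292, 291 and 295 to 198, 191 and 181 CPM (-0.62 ± 0.057), while FOXA1, another, rose by 0.31 ± 0.049 and GRHL2, an epithelial factor, by 0.91 ± 0.078. PIAS1, a SUMO ligase, rose from 47.9, 44.6 and 46 to 121, 105.1 and 118 CPM (1.31 ± 0.062), and TRIM24 rose by 0.53 ± 0.045.

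Genes of DNA replication fell as a group. Replication starts from origins licensed by the MCM helicase, which ORC, CDC6 and CDT1 load in G1, and many of its genes are transcribed by E2F factors once RB proteins release them. Of 48 tested, 40 were lower and 0 higher at 10 nM, beside 22.6% of all genes lower, with a median of -0.485. The same libraries at 0.06 nM stood above vehicle: 47 of the 48 were higher there (median 0.9), beside 16.9% of all genes. At 10 nM 36 were still higher than in vehicle, beside 29.3% of all genes. The libraries of the 2 doses did not overlap for 39 of the 48, all of them lower at 10 nM, beside 27.2% of all genes.

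MCM3, a helicase subunit, stood at 155, 152 and 163 CPM at 0.06 nM and 94.5, 80.9 and 90.3 CPM at 10 nM (-0.82 ± 0.065, adjusted p = 9.98e-09), near its vehicle level of 83.6 ± 3.14. CDT1, the licensing factor, went from 66.9, 65.7 and 67.3 to 40.9, 32.2 and 35.7 CPM (-0.88 ± 0.082, adjusted p = 9.08e-08). Vehicle had 32.4 ± 2.5 CPM of CDT1, so that for both genes the 10 nM libraries were nearer to vehicle than to 0.06 nM. MCM5 went from 122 ± 3.32 to 77.6 ± 4.56 CPM (-0.66 ± 0.062) and PCNA, the sliding clamp of DNA polymerases, from 198, 199 and 203 to 139, 123 and 125 CPM (-0.63 ± 0.064), and both stayed above their vehicle levels of 54.9 and 103 CPM. ORC1, the origin binding subunit, had the largest fall of the list (-0.91 ± 0.11). The 8 members that were not called included RRM1 and RRM2, the subunits of ribonucleotide reductase. RRM2 stood at 209, 183 and 229.9 CPM at 0.06 nM and 224, 166 and 217 CPM at 10 nM (adjusted p = 0.832), with vehicle at 90.4. GMNN, the licensing inhibitor geminin, stood at 50.4 ± 4.95 and 46.7 ± 6.49 CPM, and DBF4, the activator of the CDC7 kinase, at 24.9 ± 2.38 and 28.2 ± 4.15 CPM.

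Promoters of the replication genes are shown because so many hold letters that E2F factors are known to bind. The 3 shown are the first by p among members with a match, so a match was required. MCM5, which came before PCNA by p, was passed over. The windows are RefSeq's 250 bases before the start (GRCh38.p14), 5′ to 3′, with capitals marking every match on either strand to TTTGGCGC, TTTGGCGG, TTTCCCGC or TTTCGCGC.
MCM3 (chr6:52284743-52284992, minus strand): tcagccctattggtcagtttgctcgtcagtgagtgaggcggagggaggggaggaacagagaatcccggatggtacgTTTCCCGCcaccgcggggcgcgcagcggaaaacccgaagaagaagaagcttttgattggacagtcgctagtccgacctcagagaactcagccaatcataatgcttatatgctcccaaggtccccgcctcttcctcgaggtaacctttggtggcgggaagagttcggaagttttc
CDT1 (chr16:88803539-88803788, plus strand): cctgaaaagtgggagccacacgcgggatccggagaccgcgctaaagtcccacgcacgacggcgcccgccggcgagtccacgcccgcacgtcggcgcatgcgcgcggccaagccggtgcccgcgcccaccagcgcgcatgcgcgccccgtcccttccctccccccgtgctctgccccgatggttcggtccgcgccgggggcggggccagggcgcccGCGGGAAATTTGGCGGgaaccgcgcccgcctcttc
PCNA (chr20:5126623-5126872, minus strand): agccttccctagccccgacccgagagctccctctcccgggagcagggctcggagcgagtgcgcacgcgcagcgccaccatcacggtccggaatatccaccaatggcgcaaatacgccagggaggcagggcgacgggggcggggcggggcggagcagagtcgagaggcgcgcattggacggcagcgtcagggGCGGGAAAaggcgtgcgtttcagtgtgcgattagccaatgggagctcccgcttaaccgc
Of the 48 replication genes 41 had a window, and 24 of these (58.5%) held a match, beside 6.63% of all 11984 genes with a window. Of the 794 tested genes whose window held a match, 27.1% were called lower at 10 nM, beside 24.4% of all genes with a window. Among genes with a window, matches were in 7 of 20 of the G1 and S phase list (35%) and 6 of 26 of DNA repair (23.1%). They were in 5 of 35 of mitosis (14.3%) and 0 of 27 of the unfolded protein response.

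Regulators of the G1 to S transition were also mostly lower. Of 25 tested, 14 were lower and 2 higher (median -0.221), beside 22.6% and 22.7% of all genes. E2F1 stood at 95.9, 89.2 and 94.3 CPM at 0.06 nM and 67.3, 54.3 and 58.4 CPM at 10 nM (-0.64 ± 0.092, adjusted p = 1.73e-05), and E2F2, its close relative, went from 21.1 ± 1.09 to 11.1 ± 0.718 CPM (-0.94 ± 0.11). CCNE2, a cyclin E that activates CDK2, fell from 41.1, 34.7 and 41.9 to 25.9, 21 and 22.8 CPM (-0.76 ± 0.099), and SKP2, the ubiquitin ligase subunit that removes p27, from 58.5 ± 6.41 to 37.8 ± 4.57 CPM (-0.63 ± 0.10). The pocket protein RBL1, p107, and TFDP1, the partner of E2F factors, were lower too (-0.59 ± 0.058 and -0.51 ± 0.064). The members called higher were CDK6, a cyclin D kinase (5.49 ± 0.595 to 13.4 ± 1.58 CPM, 1.29 ± 0.17), and RB1. RB1, the retinoblastoma protein, stood at 66.9 ± 2.72 and 74.8 ± 3.46 CPM (0.16 ± 0.06, adjusted p = 0.0347), but its call was lost without 10 nM replicate 3, 10 nM replicate 4, 0.06 nM replicate 2 or 0.06 nM replicate 3 (adjusted p = 0.162, 0.089, 0.104 and 0.112), and under library totals its sign turned (-0.018).

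Of the 8 inhibitors of cyclin-dependent kinases 3 were higher and 0 lower, beside 22.7% and 22.6% of all genes. The lower count was 1 without 10 nM replicate 2. The higher count ran from 1 to 6 over all alternatives, and under library totals 1 was higher and 1 lower. CDKN2B, the CDK4 and CDK6 inhibitor p15, stood at 1.79, 1.78 and 1.65 CPM at 0.06 nM and 9.14, 8.82 and 9.58 CPM at 10 nM (2.40 ± 0.14, adjusted p = 1.9e-10), against 3.5 ± 0.802 in vehicle. CDKN1B, p27, rose from 73.6, 69 and 75.3 to 85.7, 86.1 and 85.8 CPM (0.24 ± 0.06, adjusted p = 0.00303), a call lost under library totals (0.06183, adjusted p = 0.521). CDKN1C, p57, the third, stood at 2.26 ± 0.0435 and 3.02 ± 0.269 CPM and lost its call without any one library except 10 nM replicate 4. CDKN1A, p21, stood at 119, 106 and 108 CPM at 0.06 nM and 136, 125 and 122 CPM at 10 nM (0.20 ± 0.084, adjusted p = 0.0648); it was called without 0.06 nM replicate 2 (0.24, adjusted p = 0.0469). CDKN2C, p18, stood at 29.8, 28.5 and 31.7 CPM at 0.06 nM and 41.9, 29.2 and 40.4 CPM at 10 nM (0.31 ± 0.12, adjusted p = 0.054) and was called without 10 nM replicate 3 (0.45, adjusted p = 0.00299). Against vehicle 4 of the 8 were higher at 10 nM and 2 lower, beside 29.3% and 28.3% of all genes. CDKN1B and CDKN1C were back near their vehicle means of 83.4 and 3.01 CPM (adjusted p = 0.578 and 0.961). CDKN1A was below its vehicle mean of 147 CPM (-0.21, adjusted p = 0.0379).

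The count of mitosis genes called depended on the processing, and this list was not tested against that of DNA replication. Of 42 mitosis genes tested, 5 were lower (AURKB, BUB1B, MAD2L1, SPC24 and ESPL1), beside 22.6% of all genes, and CKAP2 was higher. Their median was -0.101. At 0.06 nM 30 of the 42 were higher than in vehicle (median 0.561), beside 16.9% of all genes. At 10 nM 29 were higher than in vehicle, beside 29.3% of all genes. BUB1B, a spindle checkpoint kinase, went from 77.4, 66.3 and 76.3 to 58.2, 38.9 and 51.3 CPM (-0.57 ± 0.13), and CKAP2, a microtubule protein, from 84, 76.8 and 88.6 to 123, 104 and 121 CPM (0.48 ± 0.076). CDK1, the mitotic kinase, stood at 268 ± 40.7 and 231 ± 36.5 CPM (adjusted p = 0.243), and PLK1 at 66.8 ± 9.58 and 69 ± 16.8 CPM. The count of lower calls ran from 3 to 14 over all alternatives. It was 3 without 10 nM replicate 3 or without 0.06 nM replicate 4, and 9 without the libraries numbered 3 of all 5 groups. Under library totals it was 9 and without a low-count filter 11. With the replicate number as a block it was 13, though the labels do not say that a number marks a shared culture or day. The median over the list of log2 (CPM over the vehicle mean) was 0.661, 0.355 and 0.684 at 0.06 nM in replicates 2, 3 and 4. At 10 nM it was 0.634, 0.141 and 0.543, so the doses overlapped, with replicate 3 lowest in each. For each replicate number the median was lower at 10 nM.

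**Figure D3:**
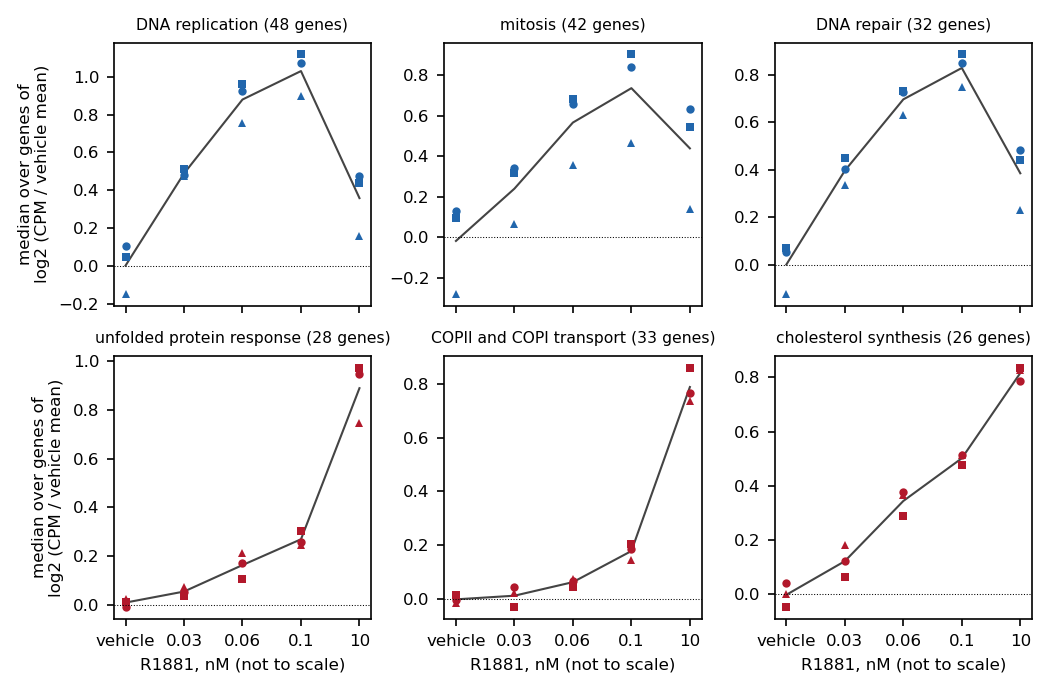
For 6 gene lists, the median over genes of log2 (CPM over the vehicle mean) in each of 15 LNCaP libraries, against R1881 dose in nM (not to scale); circles, triangles and squares are replicates 2, 3 and 4, and lines join the group means. DNA replication is at 0.926, 0.753 and 0.961 at 0.06 nM and at 0.478, 0.161 and 0.438 at 10 nM, whereas the unfolded protein response and COPII and COPI transport are at 0.171, 0.211 and 0.108 and 0.0671, 0.0752 and 0.0447 at 0.06 nM and rise at 10 nM. At 0.1 nM DNA replication is at 1.07, 0.898 and 1.12 and mitosis at 0.84, 0.467 and 0.904, so both are higher there than at 0.06 nM.

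DNA repair genes were mostly lower. Of 32 tested, 22 were lower and 3 higher (median -0.417), beside 22.6% and 22.7% of all genes. At 0.06 nM 26 were higher than in vehicle, beside 16.9% of all genes. BARD1, the partner of BRCA1, had the largest fall of the list. It stood at 220.4 ± 23.2 CPM in vehicle, 218, 193 and 245 at 0.06 nM and 64.9, 67.7 and 65.3 at 10 nM (-1.73 ± 0.10, adjusted p = 2.62e-10), with vehicle and 0.06 nM overlapping. BRCA1 itself went from 98.4 ± 9 to 66.1 ± 8.96 CPM (-0.58 ± 0.11), above its vehicle mean of 47.5. XRCC2, of homologous recombination, fell from 37, 34.6 and 41.8 to 20.4, 17.7 and 20.5 CPM (-0.96 ± 0.09). The 3 members that rose were LIG4 (18.5, 17.2 and 17 to 32.1, 31.7 and 31.1 CPM, 0.85 ± 0.083), XRCC5 and XRCC6 (0.26 ± 0.051 and 0.19 ± 0.061), which are the ligase and the Ku subunits of non-homologous end joining. PRKDC, the kinase of that same pathway, was lower (-0.30 ± 0.072). Under library totals the higher count dropped to 1.

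MYC, a growth-promoting transcription factor, stood at 214, 207 and 198 CPM at 0.06 nM and 112, 107 and 110.3 CPM at 10 nM (-0.91 ± 0.058, adjusted p = 6.47e-10), below its vehicle level of 152 ± 1.27. Of 12 genes of the MYC and MAX network 4 were higher and 4 lower, beside 22.7% and 22.6% of all genes. MXI1, a MAX partner that opposes MYC, was lower (-0.52 ± 0.056) and MXD1, another, higher (0.62 ± 0.073), while MLXIPL, the glucose-responsive factor ChREBP, fell from 3.8 ± 0.551 to 1.45 ± 0.244 CPM (-1.40 ± 0.15). TERT, the catalytic subunit of telomerase, stood at 6.63, 5.96 and 7.18 CPM at 0.06 nM and 2.61, 1.85 and 2.67 at 10 nM (-1.49 ± 0.17, adjusted p = 8.19e-07), against 2.15 ± 0.415 in vehicle. Ribosome biogenesis genes, many of them MYC targets, had 11 of 34 lower and 3 higher (median -0.0944), beside 22.6% and 22.7% of all genes, with FBL, the nucleolar methyltransferase fibrillarin, at -0.38 ± 0.078 and POLR1B, a subunit of RNA polymerase I, at -0.34 ± 0.054. Under library totals 25 were lower and 0 higher, and without 0.06 nM replicate 4 the higher count was 1. Of 40 cytosolic ribosomal protein genes 1 was called, RPS2, lower, beside 45.3% of all genes called in either direction. Under library totals 34 were lower, so their direction rests on the scaling. Without 10 nM replicate 3 the count was 4, and without 0.06 nM replicate 2 it was 2.

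The unfolded protein response list was higher throughout. This programme answers to misfolded protein in the endoplasmic reticulum (ER) through the sensors IRE1, PERK and ATF6, and secretory cells use it to fit chaperone capacity to load. All 28 members tested were called higher at 10 nM than at 0.06 nM (median 0.773), beside 22.7% of all genes, and for all 28 the libraries of the doses did not overlap, beside 54.1% of all genes. At 0.06 nM against vehicle 10 were higher and 2 lower (median 0.147), beside 16.9% and 14.3% of all genes in that comparison. Under library totals 26 of the 28 were called higher.

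DNAJB9, an ER co-chaperone, had the largest rise, from 17.9, 19.3 and 16.4 to 65.2, 72.7 and 71.2 CPM (1.97 ± 0.077, adjusted p = 1.11e-12). HSPA5, the main ER chaperone BiP, stood at 714, 616 and 656 CPM at 0.06 nM and 1225, 1032 and 1195 CPM at 10 nM (0.80 ± 0.097, adjusted p = 2.51e-06), and vehicle was at 721 ± 90.4 CPM. The sensors were all higher, ERN1 (IRE1) by 1.82 ± 0.13, EIF2AK3 (PERK) by 0.84 ± 0.055 and ATF6 by 0.26 ± 0.058. XBP1, the factor that IRE1 activates by splicing, rose by 0.80 ± 0.081, as a total over its splice forms. CREB3L4, an ER-anchored factor of the prostate, rose from 78.1, 82.5 and 87.4 to 219.7, 218 and 237 CPM (1.44 ± 0.078), DNAJC3, an inhibitor of PERK, by 1.27 ± 0.056, and the oxidoreductase ERO1A by 1.10 ± 0.059. EDEM1 and HERPUD1, of ER-associated degradation, rose by 1.21 ± 0.076 and 1.15 ± 0.11.

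Targets of ATF4, the factor that PERK signalling is known to raise, were called about as often as other genes. Of 29 ATF4 targets and tRNA synthetases 6 were higher and 7 lower (median 0.03), or 20.7% and 24.1%, beside 22.7% and 22.6% of all genes. ATF4 stood at 236, 305 and 292 CPM at 0.06 nM and 262, 284 and 304 CPM at 10 nM (adjusted p = 0.874), and DDIT3, the factor CHOP, at 8.52 ± 1.46 and 8.52 ± 1.34 CPM (adjusted p = 0.958). SLC7A5, a leucine transporter, and SESN2 were lower (-0.93 ± 0.18 and -0.63 ± 0.089), while VLDLR, a lipoprotein receptor, rose by 1.90 ± 0.095 and WARS1, a tRNA synthetase, by 0.37 ± 0.072. The difference between this list and the unfolded protein response list was not tested.

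Promoters of 3 members show the ER stress element, the sequence by which ATF6 and the factor NF-Y are known to drive ER chaperones. These 3 are the first by p among members with a match, so a match was required. The windows are those of RefSeq (GRCh38.p14), 250 bases to the start, 5′ to 3′, with capitals marking every match on either strand to the letters CCAAT and CCACG with 9 bases between them, or ATTGG and CCACG with 1 base between them.
CRELD2 (chr22:49918384-49918633, plus strand): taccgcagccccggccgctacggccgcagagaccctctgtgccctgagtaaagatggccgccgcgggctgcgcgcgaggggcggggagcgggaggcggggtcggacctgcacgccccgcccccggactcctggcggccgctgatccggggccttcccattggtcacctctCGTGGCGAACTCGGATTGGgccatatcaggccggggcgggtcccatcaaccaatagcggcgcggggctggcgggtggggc
PDIA6 (chr2:10812786-10813035, minus strand): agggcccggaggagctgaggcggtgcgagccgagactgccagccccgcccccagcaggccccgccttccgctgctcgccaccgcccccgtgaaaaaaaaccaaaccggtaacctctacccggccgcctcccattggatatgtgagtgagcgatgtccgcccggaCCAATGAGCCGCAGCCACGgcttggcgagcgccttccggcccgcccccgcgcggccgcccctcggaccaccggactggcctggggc
HYOU1 (chr11:119057206-119057455, minus strand): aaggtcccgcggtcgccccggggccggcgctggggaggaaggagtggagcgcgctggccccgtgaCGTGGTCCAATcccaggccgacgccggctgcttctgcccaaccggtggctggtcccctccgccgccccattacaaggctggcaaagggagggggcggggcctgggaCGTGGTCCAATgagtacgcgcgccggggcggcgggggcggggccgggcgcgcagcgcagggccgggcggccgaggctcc
CRELD2, an ER calcium-binding protein, rose from 59.5, 60.2 and 60.3 to 100.4, 89.6 and 101.2 CPM (0.69 ± 0.051), PDIA6, a disulfide isomerase, by 0.56 ± 0.047, and HYOU1, an ER chaperone of the HSP70 family, from 406, 378 and 376 to 682, 592 and 675 CPM (0.75 ± 0.064). Matches were in 11 of the 27 list members with a window (40.7%), beside 0.267% of all 11984 genes with a window. Over all tested genes 32 held a match, those 11 among them. Of the 32 genes 22 (68.8%) were called higher, beside 26.9% of all genes with a window. Those 22 include the 11 list members, all called higher, so this share is not independent of the list. No window of the 31 COPII and COPI genes that had one held a match.

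Genes of vesicle transport between the ER and the Golgi rose. COPII coats carry cargo out of the ER and COPI coats bring escaped proteins back. All 33 tested genes were called higher (median 0.678), beside 22.7% of all genes, and 30 were under library totals. For all 33 the libraries at 10 nM lay above those at 0.06 nM, beside 26.9% of all genes. At 0.06 nM 9 were higher and 2 lower than in vehicle (median 0.0848), beside 16.9% and 14.3% of all genes in that comparison. SEC24D, a cargo adaptor of COPII, had the largest rise, from 41.2, 41.5 and 36.8 to 153, 130.5 and 159 CPM (1.89 ± 0.075, adjusted p = 1.67e-12). Its paralog SEC24B went from 62.6, 61.7 and 61.3 to 124, 123 and 124 CPM (0.996 ± 0.047), and ARFGAP3, which lets COPI vesicles uncoat, from 74.8, 77.4 and 75.1 to 168, 177 and 178 CPM (1.20 ± 0.047). YIPF1, a Golgi membrane protein, rose by 1.19 ± 0.06. COPA, the alpha subunit of the COPI coat, went from 211 ± 7.8 in vehicle to 188 ± 5.63 at 0.06 nM and 282 ± 11 CPM at 10 nM (0.59 ± 0.051). SEC23A had the smallest rise of the list (0.22 ± 0.062).

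Hexosamine and polyamine synthesis, which supply sugars for glycosylation and the polyamines that prostate secretes, had 13 of 17 genes higher and 1, GFPT2, lower (median 0.766), beside 22.7% and 22.6% of all genes, or 2 lower without 10 nM replicate 3. ODC1, ornithine decarboxylase, the first enzyme of polyamine synthesis, stood at 418, 458 and 452 CPM at 0.06 nM and 2161, 2078 and 2729.8 CPM at 10 nM (2.39 ± 0.092, adjusted p = 1e-12). SMS, spermine synthase, went from 144, 127 and 141 to 683, 574 and 759 CPM (2.29 ± 0.088). SAT1, which acetylates polyamines for export and breakdown, went from 51, 58.4 and 56.7 to 255, 276 and 301 CPM (2.33 ± 0.073). UAP1, which makes UDP-GlcNAc, had risen by 1.20 ± 0.062 at 0.06 nM and rose by a further 1.24 ± 0.061, to 686 ± 13.6 CPM.

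**Figure D4:**
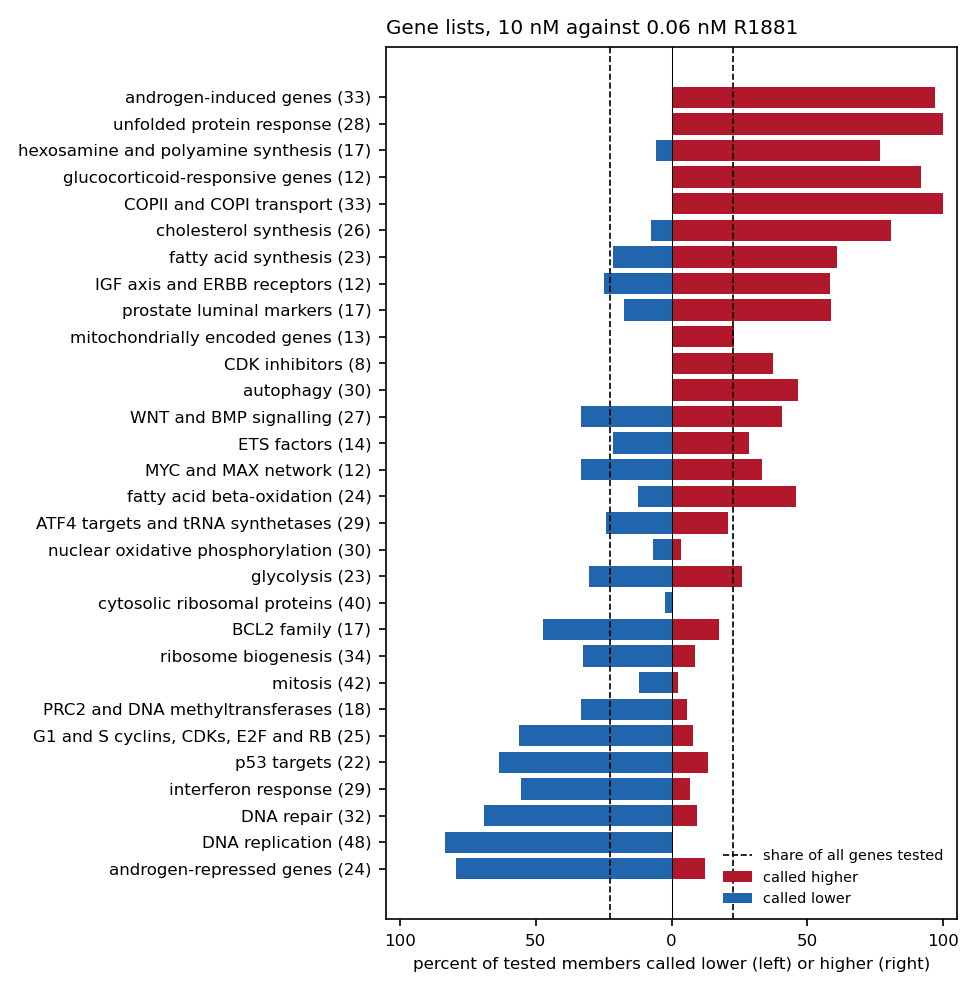
Percent of the tested members of each gene list that were called higher (red, right) or lower (blue, left) at 10 nM against 0.06 nM, with the number tested in brackets, for lists described here with at least 8 tested members; dashed lines are the shares over all 18403 genes (22.7% higher, 22.6% lower). The unfolded protein response and COPII and COPI transport reach 100% higher, and DNA replication 83.3% lower.

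Lipid synthesis rose in most members. In cholesterol synthesis 21 of 26 genes were higher and 2, INSIG2 and TM7SF2, lower (median 0.505), beside 22.7% and 22.6% of all genes. HMGCS1, an early enzyme of the pathway, stood at 116, 114 and 115 CPM at 0.06 nM and 261, 269 and 288 CPM at 10 nM (1.24 ± 0.047, adjusted p = 7.93e-13). SCAP, the sterol sensor that escorts SREBP factors, had the largest rise, from 131, 129 and 120.2 to 327, 296 and 333 CPM (1.33 ± 0.055), beside 0.33 ± 0.052 for SREBF2, the sterol-responsive factor itself. INSIG1 and INSIG2, which both hold SCAP in the ER, moved in opposite directions (1.08 ± 0.067 and -0.51 ± 0.067). FDFT1, squalene synthase, rose by 0.83 ± 0.048.

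In fatty acid synthesis 14 of 23 genes were higher and 5 lower (median 0.394), beside the same shares of all genes. Beside FASN and ACSL3, the elongase ELOVL7 rose from 85.7, 92 and 86.1 to 238, 272 and 253 CPM (1.53 ± 0.11), while ELOVL6, the elongase of saturated chains, fell from 51.7, 56.4 and 50.03 to 27.5, 31.2 and 28.4 CPM (-0.86 ± 0.058). ACACA, the cytosolic acetyl-CoA carboxylase, rose by 0.50 ± 0.059 and ACACB, the mitochondrial form, was lower (-0.70 ± 0.074). The count of lower genes became 3 without 0.06 nM replicate 3. Beta-oxidation genes had 11 of 24 higher and 3 lower (median 0.0441), beside 22.7% and 22.6% of all genes, the lower count being 1 without 10 nM replicate 3 or without 0.06 nM replicate 3. ECI2, an isomerase for unsaturated fatty acids, rose from 149, 168 and 147 to 419.8, 428 and 460.2 CPM (1.498 ± 0.063), SLC25A20, the carnitine carrier, by 1.11 ± 0.054, and the peroxisomal oxidase ACOX3 by 0.77 ± 0.065. HADHA and HADHB, the mitochondrial trifunctional enzyme, stood at 213 ± 13.3 and 198 ± 3.85 and at 120.4 ± 12.5 and 117 ± 9 CPM (adjusted p = 0.154 and 0.67).

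Of 23 glycolysis genes 6 were higher and 7 lower (12 lower under library totals), shares of 26.1% and 30.4% that are near the 22.7% and 22.6% of all genes. The genes that rose included those of glucose entry. Beside SLC2A3, the hexokinase HK1 went from 174, 172 and 168 to 310.2, 331 and 326 CPM (0.91 ± 0.059), and HK2 and SLC2A1 rose by 0.59 ± 0.078 and 0.41 ± 0.078. The largest fall was in ENO2, neuron-type enolase, from 39.3, 41.6 and 46.3 to 16.8, 19 and 18.8 CPM (-1.22 ± 0.07), and PFKM, phosphofructokinase of muscle type, was lower (-0.51 ± 0.049). ENO1, the main enolase, stood at 1098 ± 18.5 and 1114 ± 23.7 CPM (adjusted p = 0.786). Genes of oxidative phosphorylation encoded in the nucleus had 1 of 30 higher and 2 lower, beside 22.7% and 22.6% of all genes. Under library totals 16 were lower, and without 1 library 0 to 2 were higher and 1 or 2 lower. Mitochondrially encoded genes had 3 of 13 higher (23.1%), near the 22.7% of all genes. That count was 0 without 10 nM replicate 2, without 0.06 nM replicate 3 or under library totals, and 12 without a low-count filter.

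Death-related genes moved in a mixed way. Of 17 genes of the BCL2 family 8 were lower and 3 higher, beside 22.6% and 22.7% of all genes. BCL2L1 (BCL-XL), which protects cells, rose from 133, 126 and 125 to 212, 204 and 215 CPM (0.72 ± 0.051, adjusted p = 2.77e-09), while BCL2, which also protects, fell from 8.8, 11.1 and 9.54 to 4.35, 5.24 and 4.31 CPM (-1.07 ± 0.12). BMF, BBC3 (PUMA), BID and BAX, which promote death, were lower (-1.34 ± 0.15, -1.24 ± 0.11, -1.03 ± 0.092 and -0.49 ± 0.095). Beside BCL2L1, the members called higher were BNIP3 and BNIP3L (0.47 ± 0.074 and 0.38 ± 0.087). Of 22 p53 targets 14 were lower and 3 higher (median -0.402), beside 22.6% and 22.7% of all genes. TP53INP1, a stress-response protein, fell from 279, 250.4 and 279 to 124, 111 and 112 CPM (-1.23 ± 0.093). TNFRSF10B, the death receptor DR5, rose from 185, 163 and 178 to 489, 448 and 496 CPM (1.45 ± 0.072), and PPM1D, a phosphatase that switches p53 off, by 1.06 ± 0.078. MDM2, the ligase of p53, stood at 165 ± 3.92 and 159 ± 1.89 CPM (adjusted p = 0.356).

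Interferon response genes were low and mostly lower at 10 nM: 16 of 29 fell and 2 rose (median -0.411), beside 22.6% and 22.7% of all genes. OAS3, an antiviral RNA sensor, went from 47.1, 39.6 and 48 to 28.5, 23 and 29.4 CPM (-0.74 ± 0.093), and IFIT5 and IFIT2, RNA-binding effectors, were lower (-1.18 ± 0.10 and -0.90 ± 0.14). ISG20, an exonuclease, rose by 0.83 ± 0.094, and the count of higher members was 1 without 10 nM replicate 2, 10 nM replicate 4 or 0.06 nM replicate 2.

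Genes known from the glucocorticoid response were higher in 11 of 12 cases (median 0.701), beside 22.7% of all genes. The member not called was the receptor NR3C1. At 10 nM 8 were higher and 1 lower than in vehicle, beside 29.3% and 28.3% of all genes. TSC22D3, DUSP1 and KLF9 were lower at 0.06 nM than in vehicle. For these the difference between 10 nM and vehicle was not called (adjusted p = 0.38, 0.947 and 0.599). The list shares ZBTB16 with the androgen-induced list, and the glucocorticoid receptor NR3C1 was near 0, with 0.147, 0.658 and 0.262 CPM at 0.06 nM and 0.0527, 0.203 and 0.177 CPM at 10 nM, or 36 and 20 counts per group (adjusted p = 0.104). It was called lower without 0.06 nM replicate 2 (-1.55, adjusted p = 0.0307) or under library totals (-1.32, adjusted p = 0.049). ERRFI1, an inhibitor of EGFR signalling, rose from 37.3, 39.7 and 37.4 to 465, 384 and 501 CPM (3.56 ± 0.09, adjusted p = 4.3e-15). SGK1, a kinase that regulates ion transport, went from 2.54, 3.78 and 2.31 to 29.8, 31.6 and 38.9 CPM (3.56 ± 0.20), with vehicle at 2.58 ± 0.833. NFKBIA, the inhibitor of NF-kappaB, rose by 1.06 ± 0.054 and PER1, a clock gene, by 1.01 ± 0.095.

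Growth factor receptors also moved. Of 12 genes of the IGF axis and the ERBB family 7 were higher and 3 lower, beside 22.7% and 22.6% of all genes. IGF1R, the IGF-1 receptor, stood at 62.2, 83.3 and 67.8 CPM at 0.06 nM and 263, 283 and 278 CPM at 10 nM (1.95 ± 0.17, adjusted p = 4.84e-08), against 20.01 ± 4.08 in vehicle. IRS2, a docking protein of that receptor, rose by 1.54 ± 0.15 and EGFR from 114, 126 and 112 to 191, 197 and 188 CPM (0.71 ± 0.076), while ERBB2 and IGFBP2, an IGF-binding protein, were lower (-0.48 ± 0.065 and -0.81 ± 0.078). In WNT and BMP signalling 11 of 27 genes were higher and 9 lower, beside the same shares of all genes. The receptors FZD5 and BMPR1A rose by 2.06 ± 0.092 and 1.44 ± 0.082, FZD5 from 48.3 ± 4 to 201 ± 16.4 CPM, whereas FZD3 and the WNT inhibitors RNF43 and NKD1 were lower (-1.29 ± 0.14, -1.38 ± 0.13 and -1.10 ± 0.10). ID2, a BMP target, was higher (1.32 ± 0.083) and ID3, another, lower (-0.83 ± 0.16). Of 14 ETS factors 4 were higher and 3 lower, or 28.6% and 21.4%, near the shares of all genes, with SPDEF, a luminal factor, from 111, 112 and 102 to 419, 393 and 444 CPM (1.95 ± 0.064) and ETV1 from 208, 197 and 222 to 286, 296 and 294 CPM (0.48 ± 0.076).

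Among 18 genes of PRC2 and DNA methylation 6 were lower and 1, PHF1, higher, beside 22.6% and 22.7% of all genes (13 lower under library totals). UHRF1, which guides maintenance methylation, fell from 51, 41.7 and 54.5 to 29.99, 22.6 and 30.3 CPM (-0.84 ± 0.13), and DNMT1, the maintenance methyltransferase, and TET1, a demethylase, were lower (-0.44 ± 0.09 and -0.93 ± 0.13). EZH2, the PRC2 methyltransferase, stood at 51.1, 48.9 and 59.3 CPM at 0.06 nM and 48.7, 38.9 and 47.6 CPM at 10 nM (-0.24 ± 0.096, adjusted p = 0.0496), and its call was lost without 10 nM replicate 3, 0.06 nM replicate 2 or 0.06 nM replicate 4 (adjusted p = 0.212, 0.0583 and 0.244). In autophagy 14 of 30 genes were higher and 0 lower, beside 22.7% and 22.6% of all genes, 9 higher without 10 nM replicate 4, and 5 higher and 5 lower under library totals. At 0.06 nM 0 of the 30 were higher and 13 lower than in vehicle, beside 16.9% and 14.3% of all genes. At 10 nM 10 were higher and 5 lower than in vehicle, beside 29.3% and 28.3% of all genes. WIPI1, which binds the phospholipid of forming autophagosomes, had the largest change of that list, from 3.67, 3.82 and 4.43 to 37, 37.5 and 38.7 CPM (3.25 ± 0.11, adjusted p = 1.37e-13). ATG13 rose by 0.64 ± 0.057 and the cargo receptor NBR1 by 0.35 ± 0.048. Raw counts of NBR1 over 3 libraries, not scaled for depth, were 28869 in vehicle, 18120 at 0.06 nM and 27728 at 10 nM.

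Some genes did not move in one direction along the dose scale. For 914 genes with at least 5 CPM at 0.06 nM all 3 libraries at 0.06 nM lay above all vehicle and all 10 nM libraries, and for 680 genes with at least 5 CPM in vehicle or at 10 nM they lay below both. The comparisons with vehicle and with 10 nM share the 0.06 nM libraries, so these counts and their members are a description with no test. TERT and BRDT were among the 8 largest peaks, with ZPLD1, a zona pellucida domain protein, which had 4.05 ± 0.393 CPM in vehicle, 10.4 ± 1.95 at 0.06 nM and 3.39 ± 0.852 at 10 nM. SLC29A1, the nucleoside transporter ENT1, stood at 23.8 ± 1.81 CPM in vehicle, 43.1 ± 2.01 at 0.06 nM and 15.4 ± 1.24 at 10 nM, and was below vehicle at 10 nM (-0.63 ± 0.086). CDCA7L, a MYC-interacting nuclear protein, went from 40.9 ± 3.31 to 52.2 ± 2.58 and 20.6 ± 0.868 CPM. LINC00869, SORBS2, an adaptor of the actin cytoskeleton, and NAV3, a microtubule-binding protein, completed the 8, with log2 changes of -1.52 ± 0.12, -1.39 ± 0.15 and -1.33 ± 0.19.

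Among the troughs GADD45G, a growth arrest gene, stood at 17.4 ± 1.88 in vehicle, 9.32, 10.2 and 8.96 at 0.06 nM and 52.8, 54.6 and 58.1 CPM at 10 nM (2.54 ± 0.08 against 0.06 nM). SOX9, a transcription factor of epithelial progenitors, stood at 10.5 ± 2.52 CPM in vehicle, 4.18, 5.53 and 4.27 at 0.06 nM and 18, 20.04 and 21.5 at 10 nM (2.10 ± 0.20). CDKN2B, given above, belonged to this set, as did EBF2, a transcription factor of adipose tissue (2.50 ± 0.22), IQUB (2.84 ± 0.12), the galactosyltransferase B3GALT4 (1.65 ± 0.12) and DIPK1A (1.53 ± 0.10). MYOF, a membrane repair protein, had the largest rise of the set, from 1.3, 1.74 and 1.47 to 11.1, 13.2 and 13.4 CPM (3.08 ± 0.15), while its difference between 0.06 nM and vehicle, which had 2 ± 0.0861 CPM, was not called (-0.42 ± 0.17, adjusted p = 0.0677).

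**Figure D5:**
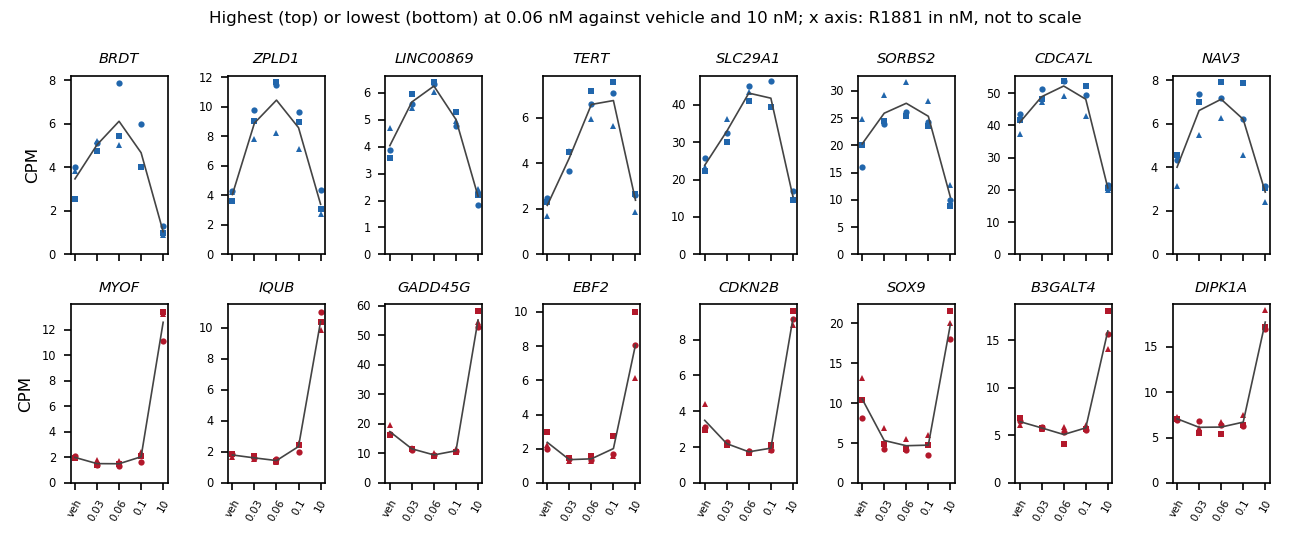
CPM in each LNCaP library against R1881 dose (vehicle, 0.03, 0.06, 0.1 and 10 nM, not to scale). The top row holds the 8 largest peaks at 0.06 nM and the bottom row the 8 largest troughs, judged against vehicle and 10 nM only. Circles, triangles and squares are replicates 2, 3 and 4, and lines join group means. TERT is at 2.15 CPM in vehicle, 6.59 at 0.06 nM and 2.38 at 10 nM, and GADD45G at 17.4, 9.49 and 55.2.

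A further class was described by library ranges. The ranges of vehicle, 0.03 nM and 0.06 nM overlapped each other for 1413 called genes that were higher at 10 nM and 855 that were lower, with at least 5 CPM in either dose group. MERTK, a receptor kinase for apoptotic cell clearance, stood at 8.67 ± 1.04 in vehicle, 6.92, 8.03 and 7.84 at 0.06 nM and 48.4, 55.9 and 53 CPM at 10 nM (2.79 ± 0.12). ANGPT2, a ligand of the TIE2 receptor, rose by 3.63 ± 0.24 and the noncoding RNA SOCS2-AS1 by 2.90 ± 0.17. NBL1, SGK1, WIPI1, UGT2B11 and KRT8, given above, were among the 8 largest of these rises, and UGT2B15 and UGT2B17 among the 8 largest falls. Overlapping ranges do not mean equal levels where the libraries of a group spread widely. Raw counts over 3 libraries were 20103 in vehicle and 6411 at 0.06 nM for UGT2B15, and 20283 and 10163 for UGT2B17. Among the falls PEG3, an imprinted zinc finger gene, went from 139, 149 and 207 to 34.2, 34.4 and 36 CPM (-2.24 ± 0.13), LIF, a cytokine of the interleukin-6 family, from 7.09, 5.53 and 5.56 to 2, 1.79 and 1.66 CPM (-1.74 ± 0.15), and FSCN1, the actin bundler fascin, from 14.6, 11 and 13.2 to 3.43, 3.4 and 4.09 CPM (-1.84 ± 0.15). LGI2, CBLN2 and DPYSL5, genes known from the nervous system, were lower (-1.98 ± 0.15, -1.90 ± 0.48 and -1.74 ± 0.18). CBLN2 stood at 53.7 ± 22 CPM in vehicle, 27.7 ± 12.8 at 0.06 nM and 7.65 ± 2.73 at 10 nM. LIF, FSCN1, LGI2 and DPYSL5 had means of 6.49, 13.8, 6.72 and 25.3 CPM in vehicle. Their means at 0.06 nM were 6.06, 12.9, 7.36 and 23.6 CPM.

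Markers of cell types other than luminal epithelium were low or not measurable for the most part. Of 12 fibroblast markers 6 were tested and all 6 were lower, beside 22.6% of all genes, FN1 by far the most abundant. COL3A1, a fibrillar collagen, stood at 1.42, 1.32 and 1.94 CPM at 0.06 nM and 0.343, 0.24 and 0.429 CPM at 10 nM (-2.24 ± 0.31), and the summed level of the list went from 423 to 564 CPM in the 0.06 nM libraries to 142 to 177 at 10 nM. DCN, PDGFRA, FAP and THY1 were too low to test. Of 13 basal markers 6 were tested, 3 lower and 1 higher, beside 22.6% and 22.7% of all genes. ITGB4, an integrin of hemidesmosomes, went from 4.43, 5.43 and 5.19 to 1.42, 1.89 and 1.74 CPM (-1.56 ± 0.15), and the call on NGFR, the one that rose (1.07 ± 0.39), was lost without 10 nM replicate 2 or 4 or 0.06 nM replicate 2 or 4. Of 13 neuroendocrine markers ENO2, POU3F2 and SYP were tested, the first 2 lower and SYP, synaptophysin, higher (0.74 ± 0.14). The call on POU3F2 was lost without 10 nM replicate 3 or 0.06 nM replicate 2. Of 11 leukocyte and endothelial markers 1, VWF, was tested, and it fell from 21.4, 18.3 and 20.6 to 7.8, 5.16 and 6.28 CPM (-1.66 ± 0.15). Among 17 luminal markers 10 were higher and 3 lower, beside 22.7% and 22.6% of all genes, with EPCAM and FOLH1 among the lower.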

How the data were processed

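Messenger RNA of LNCaP cells was sequenced from stranded poly(A) libraries, per the labels' protocols. The submitters' processing notes name Trimmomatic 0.39, STAR 2.7.8a, DESeq2 1.36.0 and the build GRCh38 (hg38). The read counter, gene annotation and strand setting are not given in the sources used here. The authors deposited raw counts per Ensembl gene for 15 LNCaP libraries, 5 groups of 3. The 15 VCaP columns could not be matched to samples and were not used.

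A symbol was found for 28456 of 37843 gene IDs, and gene positions were taken from GENCODE 29. Counts were analysed as deposited with edgeR 4.0.16 in R 4.3.3 (limma 3.58.1): TMM scaling, filtering by expression within groups, a quasi-likelihood fit with a mean for each of the 5 groups over all 15 libraries, and two-sided contrasts with Benjamini-Hochberg adjustment over all 18403 genes tested. The contrasts of 0.06 nM and 10 nM with vehicle come from the same fit and share libraries with the main contrast. The SE is the log2 fold change divided by the square root of F. The scripts were tested on simulated data for the 10 nM against 0.06 nM comparison over 17815 genes, where 64.3%, 73.2% and 94.2% of genes changed by log2 0.5, 1 and 2 were recovered, with 10 false among 163 calls. Of these genes 56, 71 and 69 were changed by those amounts, up or down at random. So few changes leave the scaling untested, on which the split into higher and lower calls depends.

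Gene lists and the rule for named genes were chosen with earlier results of these data known. The rule took the 12 largest rises and falls with at least 5 CPM in 1 group and no overlap between libraries, the 5 largest gains and losses in CPM, the 8 largest peaks, troughs and high-dose changes in each direction, up to 4 members of each list by smallest p, and a set of androgen-related genes. Other list members, UGT2B10, the genes beside printed promoters and the ribosomal RNA gene were named after their values were seen. List members that could not be tested were left out of counts, and some genes are not reported here. Alternatives were RLE and library-total scaling, DESeq2 1.42.0, other count filters, thinning to 30666460 counts, fewer libraries and the replicate number as a block.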

Additional observations from a re-analysis of the deposited data

How the results depend on the processing

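The number of genes called ran from 7207 to 9665 over all alternatives, beside 8341, and from 7207 to 7694 without 1 library. DESeq2 called 7880 genes. Scaling by library totals gave 2334 higher and 7040 lower calls in place of 4182 and 4159, and under a filter that asked for a mean of 20 counts and for 1 CPM in 3 libraries, and so tested 14485 genes, 667 genes were lower at least 2-fold in place of 1065. Of the 194 genes chosen by the rule 23 changed call or sign in some alternative. COX6C (-0.03222) and RB1 (-0.018) turned negative under library totals, where the median of all genes moved to -0.206. Library totals also moved the counts of several lists, among them DNA replication to 44 lower, cytosolic ribosomal proteins to 34 lower, ribosome biogenesis to 25 lower and beta-oxidation to 7 lower. Without the low-count filter 12 mitochondrially encoded genes were higher in place of 3, and 11 mitosis genes lower in place of 5. With 1 library left out, the higher counts of the unfolded protein response, COPII and COPI and androgen-induced lists and the lower count of DNA replication stayed within 1.5 times of their values, while 1 replication gene was called higher without 10 nM replicate 3. The cause of these shifts was not tested. Sequencing depth limits genes of a few counts per group, such as EMP1, ORM1 and NR3C1, whose fold changes depend on the prior count.

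The replicate numbers are shared between groups, but the labels do not say that a number marks a shared culture or day. The deviations of same-numbered libraries correlated at r = 0.137, 0.19 and 0.095 over genes for numbers 2, 3 and 4, not all over 0.1, although every library correlated best with its own number, a hint from the data and not from the design. With the replicate number as a block 9665 genes were called in place of 8341, and with only the 6 libraries and the block, an alternative chosen after seeing the data, 9474. With the block 13 mitosis genes were lower and 8 mitochondrially encoded genes higher, and CDKN1A, CDKN2C and NR3C1 were called.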
